A study of Mus musculus with 6 samples.

Results

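The 41 genes described here encode nuclear hormone receptors, a family of transcription factors that includes the receptors for glucocorticoids, estrogens, retinoic acid, vitamin D, thyroid hormone and oxysterols. They were chosen by family membership, among the 21853 protein-coding genes of the mouse annotation, and fall into 5 steroid receptors, 9 receptors for retinoids, vitamin D and thyroid hormone, 7 lipid-sensing receptors and 20 receptors that were named orphans because no ligand was known when they were cloned. Chromatin accessibility was profiled by ATAC-seq, in which a transposase cuts open DNA, in skeletal stem and progenitor cells (SSPCs) of untreated C57BL/6 mice. Marrow of tibiae and femora was plated and the adherent cells were taken at passage 1, and no sort is described. The study asked whether open chromatin changes between young and middle-aged animals, and 3 libraries per age group were compared. The labels state that assays used several different mice, but they give no age in months and do not tie a library to an animal, so the spread between libraries may be partly technical.

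A nuclear receptor has a zinc-finger domain that binds DNA and a ligand-binding domain that exchanges corepressors for coactivators when hormone enters. Steroid receptors pair with themselves on palindromic sites, whereas retinoid, vitamin D, thyroid and lipid-sensing receptors pair with a retinoid X receptor on direct repeats, and several orphans bind alone. In bone marrow stroma, glucocorticoids, estrogens, vitamin D, retinoids and PPAR ligands are all known to act on the balance between osteoblasts and adipocytes.

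A gene was called open in a library when a peak of that library's list fell, by at least 1 bp, within 1000 bp of one of its transcription start sites (TSSs). The lists held 35953, 43941 and 27628 peaks in young libraries 1, 2 and 3 and between 46364 and 48344 in the middle-aged libraries, and young 3 was the shallowest library, with 1.65 extended reads per base of genome background against 2.40 to 3.75 in the others. Because the significance of a peak grows with depth, each gene's best TSS peak was given as its percentile rank by −log10 q within its own list, where 100 is the strongest peak. Markers were read in the same way. Of 10 stromal marker genes, 8, 7 and 3 had a TSS peak in young libraries 1, 2 and 3 and 7, 8 and 8 in middle-aged libraries 1, 2 and 3, and the SSPC markers Lepr and Prrx1 had none in any library. Of 10 macrophage marker genes, each young library had 9 or 10 open and each middle-aged library 9, whereas no lymphoid marker of 6 had one. Csf1r was the macrophage marker not open in every library, with a TSS peak in 2 young and 0 middle-aged libraries. Of 8 endothelial marker genes, 2 were open in each young library and 4, 3 and 2 in middle-aged libraries 1, 2 and 3. Among them Cdh5 was open in all 6 libraries, at ranks of 85.4 to 89.2. The cells thus carried open macrophage genes and open Cdh5 in every library. The part of macrophages or endothelial cells in the values below was not tested. In bulk chromatin, fewer cells of a type and less open chromatin per cell cannot be told apart.

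Most nuclear receptor genes had an open start site at both ages. A TSS peak was present in all 6 libraries for 26 of the 41 genes (63.4%), against 48.4% of all protein-coding genes. It was absent from all 6 for 11 genes (26.8%, against 38.5% of all genes), and 4 genes were called in 1 to 5 libraries (13.2% of all genes). The young libraries 1, 2 and 3 held 28, 27 and 27 open receptor genes (mean 27.3 ± 0.577, SD, n = 3). The middle-aged libraries held 29, 29 and 30 (mean 29.3 ± 0.577, SD, n = 3). Over all protein-coding genes, 54.5%, 56.8% and 49.5% were open in the young and 57.4%, 57.4% and 58.0% in the middle-aged libraries. When each list was cut to the 27628 strongest peaks, the length of the shortest, the difference between the receptor means was 0.

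**Figure D1:**
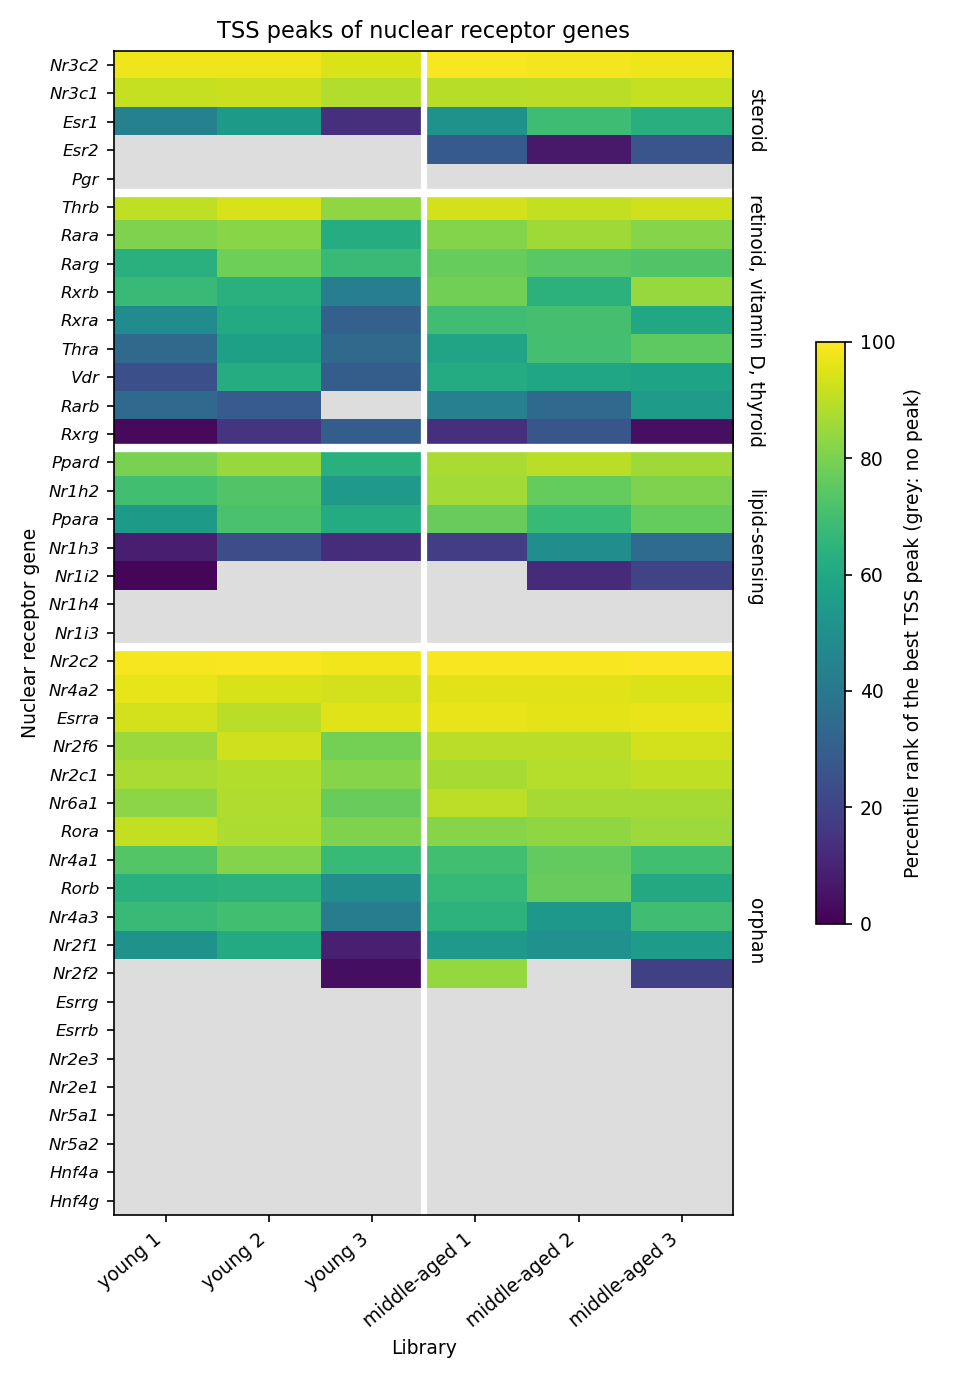
Percentile rank of the best TSS peak (colour, 0 to 100, with 100 the strongest peak of a list) for each of the 41 nuclear receptor genes in the 3 young and the 3 middle-aged libraries, by receptor class, with grey for no peak. The 26 genes with colour in all 6 columns and the 11 grey ones keep their state across the age groups, and Esr2 is the gene coloured in all 3 middle-aged and no young libraries.

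The classes differed in how many of their genes were open. All 9 genes for retinoid, vitamin D and thyroid hormone receptors had a TSS peak somewhere, and 8 of them in all 6 libraries. The steroid class had 3 of 5 open in all 6 and 1 in none, the lipid-sensing class 4 of 7 open in all 6 and 2 in none, and the orphan class 11 of 20 open in all 6 and 8 in none. The 11 genes without a TSS peak were Pgr (progesterone receptor), Nr1h4 (the bile acid receptor), Nr1i3 (a xenobiotic sensor of the liver), Esrrb and Esrrg (estrogen-related receptors), Nr2e1 (a neural stem cell factor), Nr2e3 (a photoreceptor factor), Nr5a1 (a regulator of steroid-producing glands), Nr5a2, Hnf4a and Hnf4g (factors of liver and gut).

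The start sites of 4 receptor genes are shown because the open and closed states below refer to them. They were taken from RefSeq promoters on the mouse build GRCm38 (mm10), from 250 bases before to 50 bases after the annotated start, and are written 5′ to 3′ on the strand of the gene. In Rarb, capitals mark a retinoic acid response element. In Nr2c2, Esr2 and Nr1i3, capitals mark CpG dinucleotides. Nr2c2 carried the strongest TSS peak of the family, Esr2 was called in middle-aged libraries alone, and Nr1i3 was called in none.
Rarb, chr14:16575427-16575726, minus strand: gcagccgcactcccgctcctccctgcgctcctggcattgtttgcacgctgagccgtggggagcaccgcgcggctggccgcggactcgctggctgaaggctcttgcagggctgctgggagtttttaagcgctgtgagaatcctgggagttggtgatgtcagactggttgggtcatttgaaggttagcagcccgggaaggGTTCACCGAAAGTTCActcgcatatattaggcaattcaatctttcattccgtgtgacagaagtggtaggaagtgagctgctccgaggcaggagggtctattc
Nr2c2, chr6:92092183-92092482, plus strand: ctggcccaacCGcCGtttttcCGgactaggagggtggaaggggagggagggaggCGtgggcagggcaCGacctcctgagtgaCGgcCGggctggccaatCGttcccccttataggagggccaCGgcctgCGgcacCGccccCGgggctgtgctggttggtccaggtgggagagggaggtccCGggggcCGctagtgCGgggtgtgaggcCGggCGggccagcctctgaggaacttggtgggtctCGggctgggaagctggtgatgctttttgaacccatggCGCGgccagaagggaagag
Esr2, chr12:76177210-76177509, minus strand: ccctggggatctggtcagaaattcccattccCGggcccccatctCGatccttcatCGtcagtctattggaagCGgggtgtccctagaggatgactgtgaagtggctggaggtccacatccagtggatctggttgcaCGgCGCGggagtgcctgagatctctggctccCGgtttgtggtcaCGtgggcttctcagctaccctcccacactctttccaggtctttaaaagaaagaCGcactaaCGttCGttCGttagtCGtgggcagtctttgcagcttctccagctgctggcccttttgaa
Nr1i3, chr1:171213720-171214019, plus strand: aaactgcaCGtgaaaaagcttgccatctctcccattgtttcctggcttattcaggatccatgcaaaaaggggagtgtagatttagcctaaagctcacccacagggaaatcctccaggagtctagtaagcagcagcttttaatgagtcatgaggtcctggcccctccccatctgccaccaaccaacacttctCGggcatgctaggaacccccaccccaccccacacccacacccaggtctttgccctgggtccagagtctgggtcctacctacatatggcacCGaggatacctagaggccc
The windows of Nr2c2, Esr2 and Nr1i3 held 20, 14 and 3 CpG dinucleotides. Their ratios of observed to expected CpG were 0.599, 0.595 and 0.144, so by ratio the Nr2c2 and Esr2 windows hardly differed.

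Among the steroid receptors, the mineralocorticoid and glucocorticoid receptor genes had some of the strongest peaks of the family, and the estrogen receptor genes had weak ones. Nr3c2, the mineralocorticoid receptor gene, ranked 97.5, 97.4 and 94.4 in young libraries 1, 2 and 3 and 99.1, 98.3 and 97.5 in middle-aged libraries 1, 2 and 3. The middle-aged values all lay above the young ones, by 1.89 percentile points on average (SE 0.864, exact permutation p = 0.1, the smallest that 3 against 3 allows), and the limma adjusted p was 0.312. Its peak lay in chr8:76901876-76902456, with the summit 177 bp upstream of a start site that is intronic to the longest form of the gene. Nr3c1, the glucocorticoid receptor gene, ranked 91.2, 91.9 and 88.7 in young and 89.3, 89.7 and 91.3 in middle-aged libraries, so that the groups overlapped. Esr1, the gene of estrogen receptor alpha, ranked 44.1, 54.5 and 13.8 in young and 51.0, 69.0 and 63.0 in middle-aged libraries, again with overlap. The Esr1 peak called in all 6 libraries, in chr10:4612549-4613081, had its summit in an intron 879 bp downstream of the nearest start, whereas a peak on that start itself was called in 1 young and 2 middle-aged libraries at ranks of 11.5 to 21.8.

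Esr2, the gene of estrogen receptor beta, was the 1 receptor gene whose number of open libraries differed by at least 2 between the ages. It had no TSS peak in young 1, 2 or 3 and ranked 28.2, 6.84 and 26.2 in middle-aged libraries 1, 2 and 3 (exact permutation p = 0.1, the smallest possible). A difference of at least 2 libraries in this direction was found for 2.78% of all genes, and 3 middle-aged against 0 young libraries for 0.476%. No receptor gene had at least 2 more young libraries, against 0.11% of all genes, and none had 3 young and 0 middle-aged libraries, against 0.00458%. The Esr2 peaks merged into chr12:76176936-76177462, over an untranslated part of an exon and the bases before the start. In middle-aged 3 a further peak lay at chr12:76177958-76178157, with its summit 765 bp upstream of the start. The rank of 26.2 in middle-aged 3 was that of this further peak, whereas its peak in the first region ranked 15.0. The peaks of middle-aged 1 and 2 did not overlap each other. All were low, with summits of 6.69, 5.41 and 6.44 times the genome background in middle-aged libraries 1, 2 and 3, and none was among the 27628 strongest peaks of its list. Young 1, without an Esr2 peak, had the most background reads per base, 3.75, and the lowest signal over background, with the median gene at 17.1 times against 20.6 to 29.1 in the other libraries. The part of depth and of signal over background in the Esr2 calls was not tested.

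**Figure D2:**
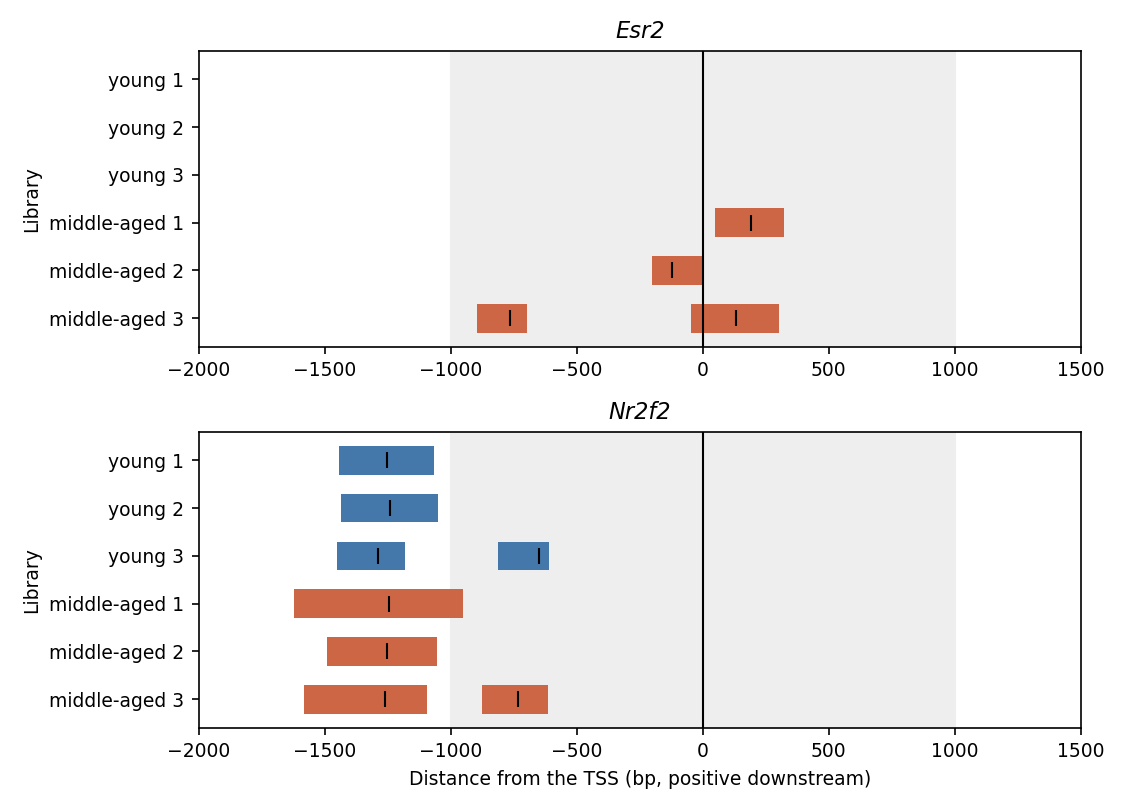
Called peaks (bars, blue for young and orange for middle-aged libraries) and their summits (ticks) around the Esr2 and Nr2f2 start sites, by distance from the TSS in bp, with the window of 1000 bp either side in grey. Esr2 has bars in the 3 middle-aged libraries at differing positions. For Nr2f2 the TSS is an internal one, and an intronic bar has its summit about 1254 bp upstream of it in all 6 libraries. Of these bars the middle-aged 1 bar alone reaches into the window.

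The receptors for retinoids, vitamin D and thyroid hormone were the class with the fewest closed genes, and their ranks spread over the whole range. Thrb, a thyroid hormone receptor gene, was the highest, at 83.4 to 94.1 over the 6 libraries, and Rara and Rarg followed at 61.9 to 85.8 and 63.5 to 78.1. Rxrb ranked 42.8 to 84.4, from a region that also covers the start window of the zinc transporter gene Slc39a7, so that the peak cannot be given to either gene. Rxra ranked 30.7 to 70.4 and Vdr, the vitamin D receptor gene, 24.6 to 61.9. In these 6 genes the ranks of the age groups overlapped.

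Thra, the other thyroid hormone receptor gene, showed the largest rank difference of the 26 genes open in all libraries. It ranked 34.6, 56.7 and 34.7 in young libraries 1, 2 and 3 and 58.4, 70.1 and 75.0 in middle-aged libraries 1, 2 and 3. The groups did not overlap, and the difference of 25.9 percentile points (SE 9.34, exact permutation p = 0.1) had a limma adjusted p of 0.312. Its region, chr11:98741625-98742118, had its summit 13 bp upstream of an internal start site. Rxrg, a retinoid X receptor gene of muscle and brain, was the weakest of the 26, at 2.58, 14.9 and 29.4 in young and 13.4, 26.7 and 3.94 in middle-aged libraries. These values came from different start sites, since the peak at chr1:167598357-167598663 was called in 5 libraries and the one at chr1:167618060-167618500 in 4.

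Rarb, a retinoic acid receptor gene that is itself induced by retinoic acid, was open in 5 libraries. It ranked 34.1 and 28.7 in young 1 and 2, had no peak in young 3, and ranked 43.6, 34.1 and 54.8 in middle-aged libraries 1, 2 and 3. Young 3, the library without a call, was the shallowest and also had the fewest stromal markers open, 3 of 10. The part of either in the missing call was not tested. All 5 peaks covered the response element printed above in capitals, which lies at chr14:16575513-16575528 and begins 52 bases before the start. The search pattern, read on both strands, held the repeat letters of this Rarb element with the 5 bases between them left free. A match in Rarb was thus fixed by the pattern, and other forms of this direct repeat were not searched. Of 32851 RefSeq promoters, 11 (0.0335%) held the pattern, with Rarb the only receptor gene among them. The single-copy nuclear receptor element AGGTCA was found in 8 of 56 receptor promoters (14.3%) and in 16.3% of all promoters. The palindromic glucocorticoid response element was in none of the 56 and in 0.00913% of all, and a direct repeat of AGGTCA spaced by 1 base in none and in 0.0396%. The cAMP response element, searched as its full palindrome, was held by the Nr2e1 and Nr6a1 promoters and by 1.79% of all. These counts describe letters in windows of 300 bases from 37 of the 41 genes, and AGGTCA is contained in the direct repeat.

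The lipid-sensing class held 4 genes open in all 6 libraries, and all 4 had a higher mean rank in the middle-aged libraries, as did 93.9% of all genes open in all 6. Nr1h2, the gene of liver X receptor beta, a sensor of oxysterols, ranked 69.8, 73.0 and 54.3 in young libraries 1, 2 and 3 and 86.2, 76.3 and 80.8 in middle-aged libraries 1, 2 and 3. The groups did not overlap, with a difference of 15.4 percentile points (SE 6.51, exact permutation p = 0.1, limma adjusted p = 0.312). Nr1h2 had 2 TSS regions, chr7:44553291-44553709 and chr7:44553836-44554155, each called in all 6 libraries. Ppard, a fatty acid receptor gene that is broadly expressed, ranked 79.8, 84.4 and 63.7 in young and 87.2, 89.8 and 85.8 in middle-aged libraries. Its groups did not overlap either (difference 11.6, SE 5.67, exact permutation p = 0.1, limma adjusted p = 0.313).

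Ppara, the target of fibrates, ranked 54.7 to 71.1 in young and 67.3 to 76.8 in middle-aged libraries. Nr1h3, the gene of liver X receptor alpha, which is abundant in macrophages, was weak, at 8.54, 23.6 and 13.1 in young and 18.4, 49.0 and 34.8 in middle-aged libraries, and its groups overlapped. Nr1i2, the pregnane X receptor gene, was called in young 1 at 1.75 and in middle-aged 2 and 3 at 11.8 and 20.6. The Nr1i2 peak lay 911 bp before the start, near the edge of the window. Nr1h4 and Nr1i3 had no TSS peak.

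The orphan class held both the strongest peaks and most of the closed genes. Nr2c2, the gene of testicular receptor 4, ranked 98.7, 98.9 and 97.8 in young libraries 1, 2 and 3 and 99.0, 98.8 and 99.4 in middle-aged libraries 1, 2 and 3, with overlapping groups and the highest mean of the family, 98.8. Nr4a2, an immediate early gene, ranked 96.3, 93.9 and 93.3 in young and 95.4, 95.6 and 94.2 in middle-aged libraries, with overlap. Esrra, whose product drives genes of mitochondrial energy metabolism, ranked 93.0, 89.8 and 95.0 in young and 96.7, 95.8 and 96.6 in middle-aged libraries. The Esrra groups did not overlap (difference 3.71, SE 1.30, exact permutation p = 0.1, limma adjusted p = 0.312). Nr2f6 ranked 79.2 to 93.3, Nr2c1 81.9 to 90.3, Nr6a1, a germ cell factor gene, 76.8 to 90.0, and Rora 80.8 to 90.8. Nr4a1 and Nr4a3, the other immediate early receptor genes, ranked 67.3 to 81.4 and 42.1 to 69.7, and Rorb 49.3 to 76.9. The 7 genes of the last 2 sentences had overlapping groups.

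The COUP transcription factor genes differed in where they were open. Nr2f1 ranked 51.0, 61.0 and 8.75 in young and 53.8, 50.4 and 54.7 in middle-aged libraries, from chr13:78198975-78199638, 484 bp downstream of the nearest start, and young 3 was far below the rest. Nr2f2 was called at its start window in young 3 at 3.80, in middle-aged 1 at 84.0 and in middle-aged 3 at 19.1, so in 1 young and 2 middle-aged libraries. A wider look showed a region open in every library. The region chr7:70361546-70362216 ranked 77.3, 74.7 and 20.1 in young libraries 1, 2 and 3 and 84.0, 85.4 and 83.9 in middle-aged libraries 1, 2 and 3. Its summit lay in an intron, 1254 bp upstream of an internal start site of the gene. The middle-aged 1 peak was the one long enough to enter the window. With windows of 2000 bp either side, Nr2f2 was among 8 receptor genes whose middle-aged ranks all lay above the young ones, against 30.9% of all genes.

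Several genes had more than 1 open start site, and 17 had at least 2 separate TSS regions. In Rora, the start of the short forms, chr9:69289527-69290233, was open in all 6 libraries at 80.8 to 90.8, whereas the start of the longest form, chr9:68653478-68653832, was open in 5 at 4.15 to 49.6. In Nr4a1, the downstream start, in chr15:101266499-101266979, was the strong one in all libraries, and the upstream start, in chr15:101253947-101254382, ranked 0.312 to 56.2. In Rarg, the most upstream start, in chr15:102257423-102257863, was called in 1 young and 3 middle-aged libraries, at 48.3 to 59.5, beside an internal start open in all 6. Over the 30 genes with a TSS peak, the summit of the best peak lay a median of 89.5 bp upstream of the nearest start, and in 22 of the 30 it lay within 250 bp.

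The age comparison of ranks was then made for the 26 genes open in all 6 libraries. In a limma fit over the 10569 genes open in all libraries, no gene reached an adjusted p under 0.05 (0%), and 1611 genes (15.2%) had an unadjusted p under 0.05. Of the receptor genes, 3 were among the latter, Thra, Nr1h2 and Esrra, all higher in middle-aged libraries, and the lowest adjusted p of the 26 was 0.312. The median rank difference was 5.24 percentile points over the receptor genes and 4.97 over all genes. It was 1.89 in the steroid, 13.0 in the retinoid, vitamin D and thyroid, 13.5 in the lipid-sensing and 2.89 in the orphan class. The median young ranks were 90.6, 52.4, 64.1 and 85.6 in the same order, against 82.0 over all genes. A rank near 100 has little room to rise, and genes of like young rank were not compared. Ranked only among the genes open in all 6 libraries, which removes the general shift, the median differences were 2.88, −1.24, 4.04 and −3.14 points in this order of classes. Over all genes the median was −0.02, and the retinoid and orphan classes turned direction. Mean ranks were higher in middle-aged libraries for 22 of the 26, against 93.9% of all genes. Groups did not overlap, with middle-aged higher, for 5 of the 26 (Nr3c2, Thra, Ppard, Nr1h2 and Esrra), against 30.6% of all genes, and for none with middle-aged lower, against 0.274%. Higher ranks in middle-aged libraries were thus the general pattern of open genes, and the 5 receptor genes are no more than the background gives.

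**Figure D3:**
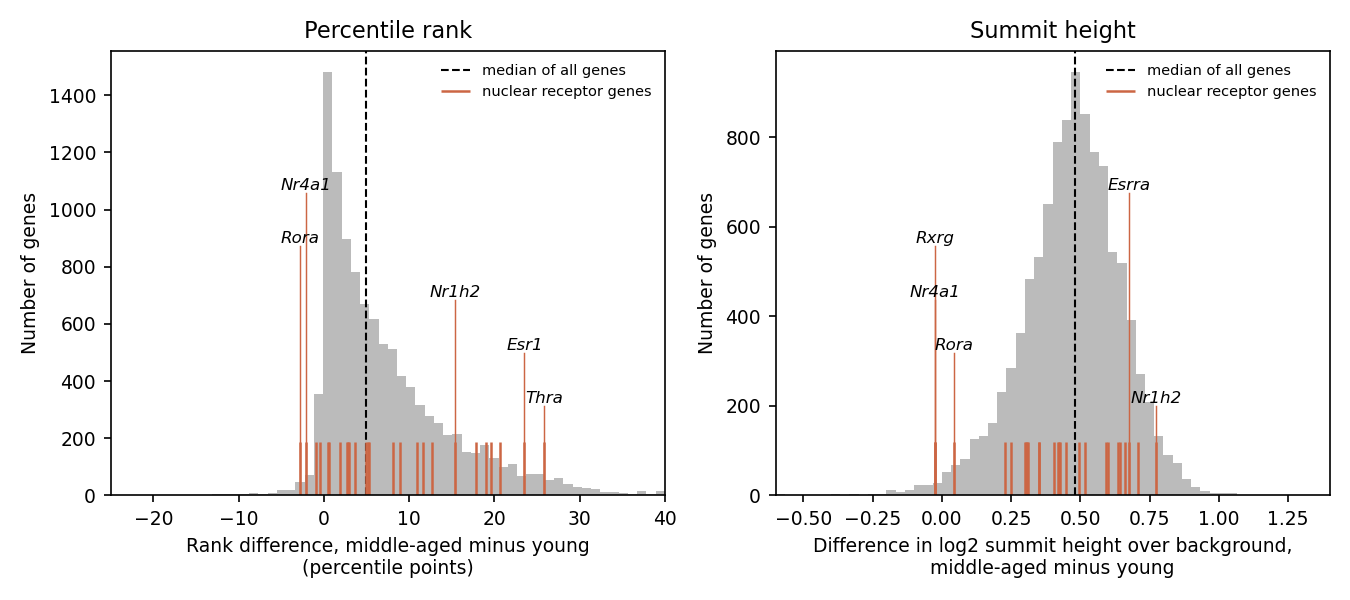
Difference between middle-aged and young libraries in percentile rank (left, percentile points) and in log2 summit height over background (right) for all genes open in all 6 libraries (grey histogram) and for the 26 receptor genes (orange ticks), with dashed lines at the medians of all genes, 4.97 points and 0.48, and genes beyond the axes counted in the end bars. The receptor genes spread around the dashed lines, with Rora and Nr4a1 left of the grey median in both panels and Nr1h2 right of it.

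By construction, weak peaks added to a list raise the percentile of the stronger ones, so the comparison was repeated with lists of equal length. The median difference over all genes was then 0.855 points. None of the receptor genes had non-overlapping groups with middle-aged higher, against 9.51% of all genes, and 3 had middle-aged lower, against 3.71%. These were Nr3c1, at 88.6, 87.2 and 88.7 in young and 82.1, 82.6 and 84.8 in middle-aged libraries, Rora, at 88.0, 80.1 and 80.8 in young and 69.7, 71.8 and 74.3 in middle-aged libraries, and Nr4a1, at 65.2, 70.5 and 67.3 in young and 49.3, 59.6 and 47.1 in middle-aged libraries. The limma adjusted p was 0.701 for each. Ranked only among genes open in all 6 libraries, Nr4a3 joined these 3 (4 genes, against 6.05% of all genes), no gene was higher (5.86%), and 11 receptor genes had a higher and 15 a lower mean in middle-aged libraries (49.7% of all genes higher).

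The height of the peaks gave a further measure. The number of reads at each summit was recovered from the deposited values and divided by the genome background of its library, a measure chosen after the ranks had been seen. The median gene stood 17.1, 24.0 and 20.6 times above background in young libraries 1, 2 and 3 and 28.3, 29.1 and 28.6 times in middle-aged libraries 1, 2 and 3. The median receptor gene stood 14.8, 22.1 and 17.0 times above it in young and 25.4, 23.9 and 25.4 times in middle-aged libraries. On the log2 scale the median difference was 0.48 over all genes and 0.42 over the receptor genes. In the limma fit, 9 of the 26 receptor genes rose (adjusted p under 0.05), against 46.3% of all genes, and none fell, against 0.0285%. The SEs of this fit followed peak height rather than a gene's own spread, at 0.207 for each of Esrra, Nr3c1 and Nr4a2. Its p-values thus hardly measure the spread of a single gene between libraries. The 9 genes that passed were Nr3c2, Rara, Rxrb, Thra, Ppard, Nr1h2, Esrra, Nr2c2 and Nr2f6, with log2 differences of 0.52 to 0.77. Separately, the heights of the age groups did not overlap for 13 of the 26, all higher in middle-aged libraries, against 60.8% of all genes. These 13 included the 9 except Nr2f6, whose groups overlapped, and also Nr3c1, Rxra, Nr2c1, Nr4a2 and Nr6a1, which did not pass the limma test. Signal over background differed between the age groups over the genome as a whole, so that more open chromatin at these genes and a general difference between the libraries cannot be told apart.

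Nr1h2 rose the most on this scale, from 14.4, 20.5 and 16.4 times background in young to 33.5, 26.2 and 27.6 times in middle-aged libraries (log2 difference 0.77, SE 0.22, limma adjusted p = 0.0122). Esrra stood at 27.7, 32.5 and 43.1 times in young and 55.1, 54.5 and 52.6 times in middle-aged libraries (log2 difference 0.68, SE 0.21, limma adjusted p = 0.0151). Nr2c2, the tallest, stood at 46.9, 70.7 and 56.5 times in young and 83.4, 87.8 and 87.7 times in middle-aged libraries (log2 difference 0.59, SE 0.21, limma adjusted p = 0.0248). The middle-aged libraries were all higher in each of the 3 genes (exact permutation p = 0.1, the smallest possible). With each library centred on its median gene, the limma adjusted p was 0.697 for Nr1h2, 0.764 for Esrra and 0.871 for Nr2c2.

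Other receptor genes had log2 height differences near 0, while the median gene was taller in middle-aged libraries. Rora stood at 21.3, 25.4 and 22.5 times background in young and 22.0, 24.1 and 25.1 times in middle-aged libraries (log2 difference 0.04, SE 0.22, limma adjusted p = 0.851). Nr4a1 stood at 14.7, 22.3 and 17.6 times in young and 16.9, 20.0 and 16.1 times in middle-aged libraries (log2 difference −0.03, SE 0.23, limma adjusted p = 0.915). Rxrg, at 4.27 to 9.11 times, had a log2 difference of −0.02. With each library centred on its median gene, the log2 height was lower in every middle-aged than in every young library for 5 receptor genes, against 7.59% of all genes, with differences of −0.52 for Nr4a1, −0.45 for Rora, −0.26 for Nr4a3, −0.24 for Nr2f1 and −0.19 for Nr3c1. It was higher for 2, Nr1h2 by 0.28 and Nr2c2 by 0.10, against 5.13% of all genes. No receptor gene passed the limma test after centring (lowest adjusted p = 0.501), and 1 gene of 10523 did (0.0095%). At an unadjusted p under 0.05 were 3 of the 26 receptor genes and 773 of all 10523 genes.

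**Figure D4:**
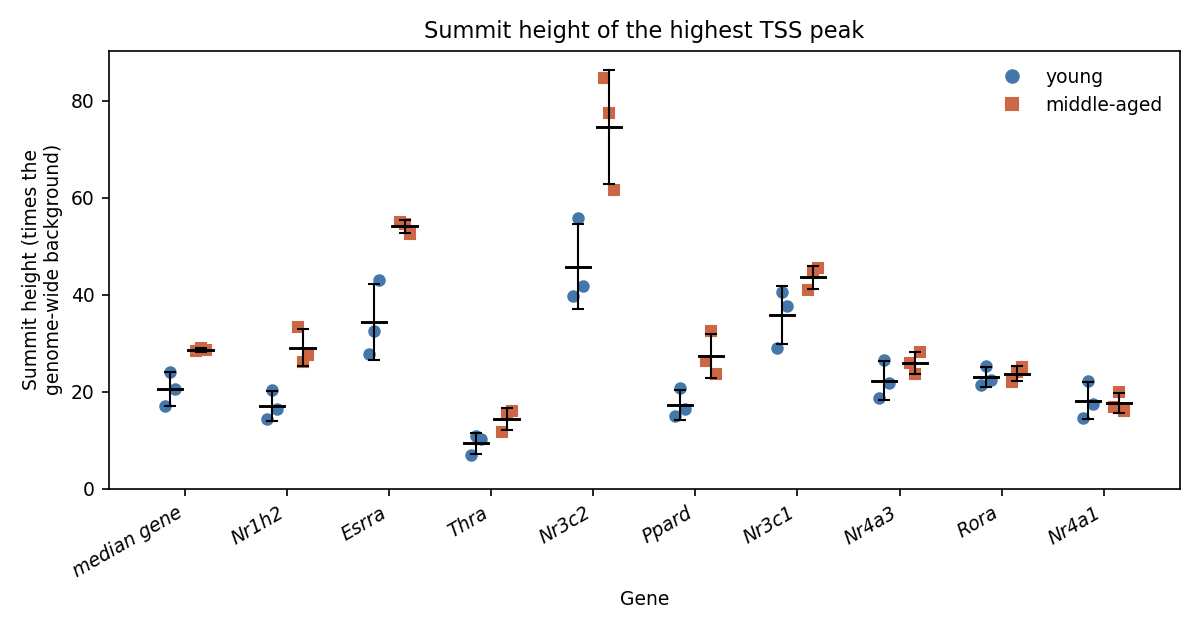
Summit height of the tallest TSS peak, in times the genome-wide background, in each library (points) with group means and SDs (lines and bars, n = 3), for the median of all open genes and 9 receptor genes. Nr1h2, Esrra, Nr3c2, Ppard and Thra are higher in all middle-aged than in all young libraries, as the median gene is, whereas the Rora and Nr4a1 points of the age groups overlap.

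The sequence around the start sites separated open from closed receptor genes much as it did for other genes. The ratio of observed to expected CpG dinucleotides, which is high in CpG islands, was computed in 300 bases around every start site and the highest value per gene was kept. Of the 41 receptor genes, 29 (70.7%) had a ratio of at least 0.6, against 53.9% of all genes. Of those 29, 23 (79.3%) were open in all 6 libraries, against 76.5% of CpG-rich genes in general. Of the 12 CpG-poor receptor genes, 3 (25%) were open in all 6, against 15.6%, and these were Vdr (0.546), Nr1h3 (0.524) and Esr1 (0.469). Esr2 lay just under the limit at 0.595. Nr2c2 counted as CpG-rich through another start site (0.999), whereas its window printed above had a ratio of 0.599. The CpG-rich genes without a TSS peak were Esrrb (1.05), Nr5a1 (0.853), Nr2e1 (0.818) and Esrrg (0.729).

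**Figure D5:**
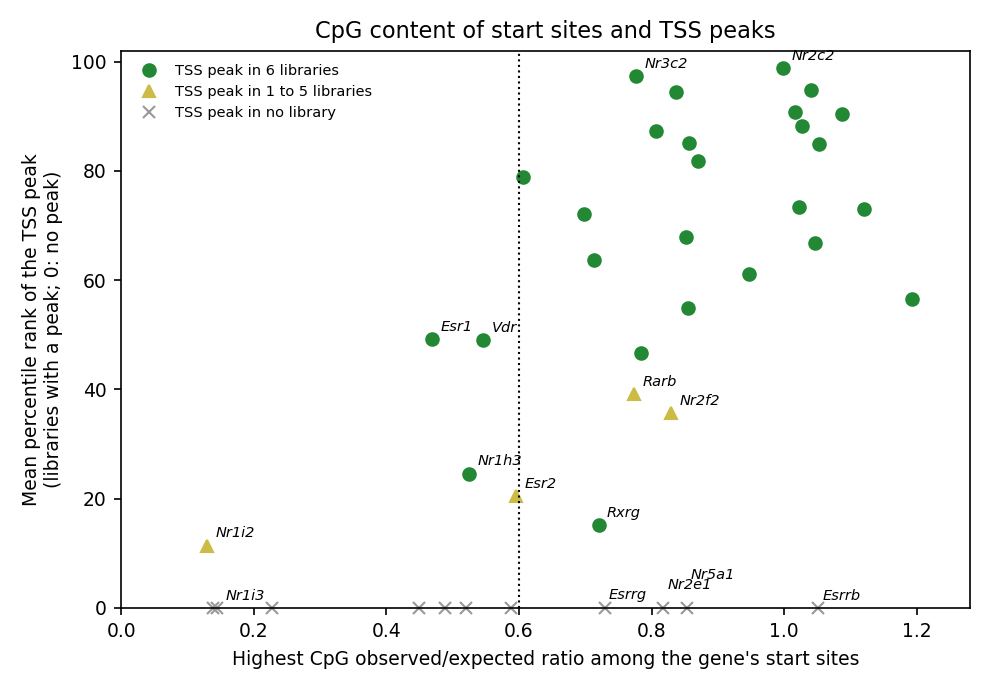
Highest CpG observed to expected ratio among a gene's start sites (x axis) against the mean percentile rank of its TSS peak over the libraries with a peak (y axis, 0 where no library has one) for the 41 receptor genes, with the dotted line at a ratio of 0.6. To the right of the line 23 of 29 genes are open in all 6 libraries (circles), to the left 3 of 12, and crosses on the right mark Esrrg, Nr2e1, Nr5a1 and Esrrb.

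Genes that act with the receptors were read from a list of 53, of which 30 were open in all 6 libraries and 11 in none. Presence differed by at least 2 libraries for 5, all with more middle-aged libraries, the direction that also held for most such genes of the genome (2.78% of all genes, against 0.11% with more young libraries). They were Dio2, which activates thyroid hormone (1 young and 3 middle-aged libraries), Aldh1a3, a retinoic acid synthase (0 and 2), Cyp24a1, which degrades vitamin D (0 and 2), Angptl4, a PPAR target (1 and 3), and Fabp4, a fatty acid carrier of adipocytes and macrophages (1 and 3). Fabp4 ranked 9.84 in young 2 and 37.3, 47.9 and 50.5 in middle-aged libraries 1, 2 and 3. Rank groups did not overlap, with middle-aged higher, for 14 of the 30 open genes, against 30.6% of all open genes, and for none with middle-aged lower, against 0.274%. The 14 included 4 of 5 receptor chaperones, and no limma adjusted p was under 0.05. The largest of these differences were 16.7 for Dusp1, 15.5 for Hsp90ab1, 14.8 for Srebf1, 11.6 for Cpt1a and 10.8 for Ncoa1. Ranked only among genes open in all 6 libraries, 17 of the 30 had a higher and 13 a lower mean in middle-aged libraries (49.7% of all genes higher). With heights centred on the median gene, their median log2 difference was 0.016, against −0.015 over all genes, and none passed the limma test.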

How the data were processed

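ATAC-seq libraries of 3 young and 3 middle-aged SSPC samples were grouped and numbered by their sample titles. Per the labels and the study's methods, the authors made reads from base calls (bcl2fastq), mapped them to mm10 (Bowtie2), removed duplicates (Sambamba) and ran MACS on each library. Whether reads were shifted for the transposase is not given in the sources used here. The authors deposited for each peak a position, a score (a whole-number form of the q-value), the fold enrichment at the summit (a ratio over the caller's local background), the −log10 p-value, the −log10 q-value and the summit position. Their DiffBind comparison needs reads and was not repeated.

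TSSs were the 54361 protein-coding start sites of the GENCODE annotation of mm10, without the mitochondrial genome, and an overlap of 1 bp with the window counted. Receptor genes with a TSS peak were counted per library, and percentile ranks were fitted with limma 3.58.1 (trended prior variance, Benjamini-Hochberg adjustment over all genes open in all 6 libraries), with no replicate block. Single genes were also given an exact two-sided permutation test over the 20 assignments of 3 against 3, whose smallest p is 0.1. Depth is not given as reads. The summit pileup and local background were therefore solved from the fold and the −log10 p under the Poisson model of the caller; the pileup was a whole number within 0.02 reads for 100% of the solved peaks, and 1 to 30 peaks per list could not be solved. The lowest background of a list was taken as its genome background. The fit was tested on simulated data. Python 3.11.15, numpy 2.4.6, pandas 2.3.3, scipy 1.17.1 and matplotlib 3.10.9 were used.

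The receptor genes, the list of 53 acting genes, the marker lists and the tests were chosen with earlier results of these data known. Values in every library are given for genes whose presence differed by at least 2 libraries, whose rank groups did not overlap, that had the 3 highest or 3 lowest mean ranks, or that were called in 1 to 5 libraries. Of the acting genes, those with such a presence difference and the 5 largest non-overlapping rank differences in each direction are named, and there were none in the downward direction. Other genes named were chosen after their values were seen. Equal numbers did not pair the libraries: the deviations of young and middle-aged libraries with equal numbers correlated at 0.00508, −0.0359 and −0.0687. Alternatives tried were equally long lists, a minimum −log10 q of 5, windows of 500 and 2000 bp, the summit in the window, ranks by fold enrichment or among genes open in all 6 libraries, a logit scale, a replicate block, each library left out, and summit heights.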

Additional observations from a re-analysis of the deposited data

How the results depend on the processing

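The excess of open receptor genes in middle-aged libraries, 2.00 genes on average, was 2.67 at a −log10 q of at least 5 and 0 with equally long lists, and between 1.67 and 2.33 with any 1 library left out. The count of receptor genes with at least 2 more open middle-aged libraries was 1 (Esr2), 2 at a −log10 q of at least 5, 0 with equally long lists, and 1 to 3 with 1 library left out (3 without young 1, 2 without young 2 or young 3). With full lists and all libraries the share of all genes was 2.78%. That share is not given here for the alternatives, so the counts of 2 and 3 cannot be set against a background. For the counts that follow, the share of all genes under the same setting is given in brackets. The 5 receptor genes with non-overlapping, higher ranks (30.6%) became 8 with windows of 2000 bp (30.9%) and 0 with equally long lists (9.51%). They became 0 when ranked among genes open in all 6 libraries (5.86%), 13 by summit height (60.8%) and 2 by centred height (5.13%). With 1 library left out they were 5 to 16, with 16 without young 2 (58.7%). Without middle-aged 1 and without middle-aged 2 they were 8 each (40.1% and 41.6%). Non-overlapping, lower ranks were found for 0 receptor genes (0.274%), for 3 with equally long lists (3.71%) and for 4 among genes open in all 6 (6.05%). They were found for 5 by centred height (7.59%) and for 0 to 1 with 1 library left out. Without young 3 the 1 gene was Rora (2.23%).

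The median rank difference of the receptor genes minus that of all genes was 0.277 points and turned to −1.61 when ranked among genes open in all 6 libraries; the cause was not tested. Calls by limma at an adjusted p under 0.05 were 0 for ranks under every alternative, whereas summit height, added after seeing the data, gave 9 receptor genes and 4879 genes in all, and centred height 0 and 1. With the replicate block, 0 receptor genes and 0 genes in all were called, 1334 genes had an unadjusted p under 0.05, and no call changed. Nr3c2, Thra, Ppard, Nr1h2 and Esrra passed by summit height and by none of the other alternatives. At 3 libraries per group, and with young 3 at the lowest depth, a weak peak missing from a library cannot be called absent, only not detectable at this depth.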

Other observations

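Of the 11 receptor genes without a TSS peak, 6 had peaks inside the gene, in 13 regions. Nr1h4, the bile acid receptor gene, had 4, of which chr10:89461861-89462215 in an intron was called in all 6 libraries at ranks of 49.5 to 75.3 and chr10:89531045-89531673 at 9.22 to 41.9. Hnf4a had an intronic region at chr2:163534939-163535309 in all 6 libraries, which ranked 36.5, 30.5 and 17.5 in young libraries 1, 2 and 3 and 52.3, 47.9 and 62.9 in middle-aged libraries 1, 2 and 3. The middle-aged values of this Hnf4a region all lay above the young ones, as did the TSS peak ranks of 30.6% of all genes open in all 6 libraries. The region was not ranked in equally long lists. Esrrg had 3 intronic regions in 4 or 5 libraries each, and Pgr, Esrrb and Nr2e3 had 1 or 2 regions in 1 to 4 libraries. The Esrrg region chr1:187651767-187652194, called in 5 libraries, overlapped the RefSeq promoters chr1:187651508-187651807 and chr1:187651991-187652290 of that gene. Their starts were not among the protein-coding start sites used here, so the region did not count as a TSS peak. Nr1i3, Nr2e1, Nr5a1, Nr5a2 and Hnf4g had no peak at the start or in the gene. These regions were looked at after the values were known.

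Over all 41 genes, 107 regions lay inside genes and away from a start window, 33 of them in all 6 libraries, and 0 were called in all 3 libraries of one age and none of the other. Rora, the longest gene, held 14, and Rarb and Thrb 13 each. In Thrb, 6 were called in all 6 libraries, and the intronic region chr14:17954004-17954422 ranked 78.4 to 92.8. In Esr1, the intronic region chr10:4786922-4787575 ranked 85.5, 92.5 and 92.7 in young and 91.5, 92.3 and 87.2 in middle-aged libraries, above the gene's TSS peak in every library. Rxra, the common partner of many receptors, held 8 regions in its body, 5 of them in all 6 libraries, and the highest, chr2:27740026-27740642, ranked 67.2 to 86.1.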
